A study of Mus musculus with 2 samples.

Results

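The Sox genes Sox2, Sox3, Sox4, Sox5, Sox6, Sox8, Sox9, Sox10, Sox11 and Sox18 were followed across the tissues of mouse inter-limb somites, the blocks of trunk mesoderm between the limb buds. These 10 genes were taken by symbol from the 27998 genes listed in the files, and all 10 had UMIs at both stages. The embryos were wild-type C57BL/6, with no other allele or agent, and somites of 3 embryos were pooled into 1 library at E9.5 and into 1 library at E11.5. The dissected pieces also held cells with markers of neural tube, neural crest and vessels, and these were read as tissues of their own. With 1 library per stage, the stage and the library cannot be told apart, and no difference was tested over replicate embryos.

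Sox proteins bind the minor groove of DNA through a high mobility group box related to that of Sry and bend it, and most of them act together with a partner factor. They fall into groups by sequence: Sox2 and Sox3 are SoxB1 factors, Sox4 and Sox11 SoxC, Sox5 and Sox6 SoxD, Sox8, Sox9 and Sox10 SoxE, and Sox18 SoxF. Members of a group are often found in the same cells and can replace each other in part. In the trunk, SoxB1 factors are known for keeping neural progenitors undifferentiated, SoxE factors for neural crest, glia and cartilage, SoxD factors as helpers of Sox9 in cartilage, SoxC factors for young neurons and mesenchyme, and SoxF factors for vessels.

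Reads were counted by unique molecular identifier (UMI), a short barcode added to a transcript before PCR so that its copies count once. The E9.5 library held 149368952 UMIs in 10121 barcodes and the E11.5 library 136655763 UMIs in 10167 barcodes, and 9851 and 9595 cells were kept, with a median of 12462 and 12479 UMIs. The libraries shared 30 barcode sequences. Cells were gated by UMIs of marker genes, with no Sox gene in any gate, and a cell that matched more than 1 tissue was left out. Levels are UMIs of a gene per 1000000 UMIs of the gated class (UPM), and a range behind a level is its exact 95% Poisson interval, which covers counting error only. UMI counts of different genes are not compared as levels, and each gene is read across classes. The gates gave 1640 neural tube cells at E9.5 against 97 at E11.5, 143 and 418 neurons, 386 and 228 neural crest cells, 280 and 62 endothelial cells, 1598 and 789 sclerotome cells, and 655 and 162 muscle progenitors. Cartilage precursors numbered 8 at E9.5 and 1113 at E11.5, so their level is given for E11.5 alone. Markers that were not used in the gates were highest in their own class for 5 of 5 endothelial genes at both stages. At E11.5 this held for 5 of 5 sarcomere genes and 4 of 4 neuron genes. Muscle markers were compared only with classes outside muscle. At E9.5 it was 3 of 4 neuron genes, with Gap43 at 85.6 UPM in neurons and 236 in endothelial cells. For muscle progenitors Itm2a was the only such marker, since Pax3 and Pax7 are part of the gate. Itm2a stood at 37.2 UPM in progenitors and 116 in endothelial cells at E9.5. At E11.5 it stood at 1129 UPM in progenitors and 192 in sclerotome, the next class outside muscle. Sclerotome genes gave 4 of 4 at E9.5 but 3 of 4 at E11.5. For neural crest this held for 2 of 4 at E9.5 against 3 of 4 at E11.5, and for cartilage for 4 of 6. For the neural tube it held for 3 of 4 at both stages. The E9.5 neurons held little of the axonal gene Mapt, with 6.54 UPM against 391 at E11.5.

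**Figure D1:**
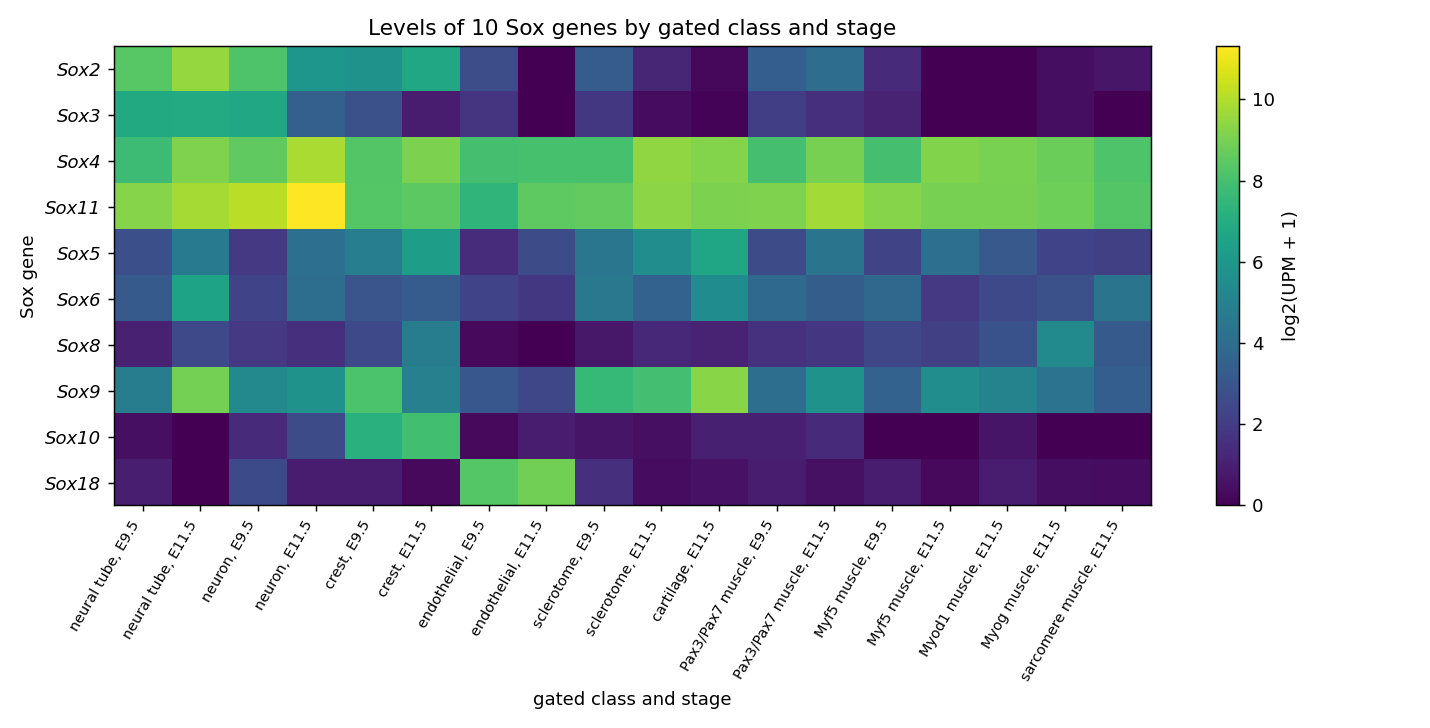
Level of each Sox gene (rows) in each gated class and stage with at least 20 cells (columns), as log2(UPM + 1) by colour. Sox18 stands out in the endothelial columns, Sox10 in the crest columns and Sox2 and Sox3 in the neural tube columns, whereas Sox4 and Sox11 are found in every column; colours are to be read along a row.

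SoxB1 genes marked the neural tube at both stages and were lower in the E11.5 neurons. Sox2 (ENSMUSG00000074637; chromosome 3, 34650405 to 34652461 in GRCm38), the factor best known for holding neural progenitors in their state, stood at 333 (326 to 341) UPM in neural tube cells at E9.5 and at 743 (693 to 796) at E11.5. In neurons it stood at 295 (271 to 321) UPM at E9.5 and at 61.5 (54.6 to 69.1) at E11.5. The neural tube level was thus the higher at E11.5 and the neuron level the lower. At the same depth of 5000 UMIs per cell, a Sox2 UMI was found in 77.2% of the neural tube cells at E9.5 against 94.6% at E11.5, and in 62.4% and 12.6% of the neurons. The background share, read in endothelial cells, was 2.24% and 0% at that depth, and 3.57% and 0% without thinning (median depths of 14392.5 and 15211.5 UMIs). Without thinning, 94.5% and 99.0% of the neural tube cells had a Sox2 UMI, at median depths of 12102 and 9952 UMIs.

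Sox3 (ENSMUSG00000045179; chromosome X, 60891366 to 60893430) is the SoxB1 partner of Sox2 in the neural plate and tube. Over the pooled neural tube cells its level was the same at both stages within counting error, with 117 (112 to 121) UPM at E9.5 against 119 (99.2 to 141) at E11.5. In neurons it went from 106 (91.9 to 122) UPM to 10.1 (7.45 to 13.5). The log2 ratio of E11.5 over E9.5 was 0.03 (95% interval -0.24 to 0.28) in the neural tube and -3.39 (-3.88 to -2.92) in neurons. Within the E9.5 neural tube, Sox3 was higher in ventral cells (146 UPM, 803 cells with Nkx6-1, Olig2, Foxa2 or Nkx2-2) than in dorsal cells (72.5 UPM, 457 cells with Msx3 or Olig3), a log2 ratio of 1.01 (0.86 to 1.15). Sox2 showed no such difference, at 334 UPM ventrally and 345 dorsally. Sox3, Sox6 and Sox9 were the 3 of 8 members past 2-fold between the ventral and dorsal cells, all of them higher ventrally, where 3.61% of all genes were higher and 2.18% lower. At E11.5 the same markers gave 19 ventral and 35 dorsal cells, so the 2 stages pool these sides in unlike shares. The part of this in the stage values of Sox3 and Sox6 was not tested.

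The neuron gate at E9.5 overlapped the neural tube gate: 70 of the 143 neurons also matched the neural tube markers, against 32 of 418 at E11.5, and 3 and 5 matched the crest markers. Without these cells, a choice made after the values were seen, Sox2 in neurons stood at 130 (101 to 164) UPM at E9.5 and at 18.7 (14.8 to 23.4) at E11.5, and Sox3 at 43.9 and 4.13. The stage difference in neurons was as large without them, with a log2 ratio of -2.80 (-3.28 to -2.31) for Sox2 and -3.41 (-4.40 to -2.45) for Sox3. At E11.5 both genes were lower in neurons than in the neural tube by a log2 ratio of -3.60 (-3.80 to -3.40) for Sox2 and -3.55 (-4.06 to -3.06) for Sox3. At E9.5 these ratios were -0.18 (-0.30 to -0.05) and -0.14 (-0.35 to 0.07), and -1.36 and -1.41 without the cells matching a second gate.

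Outside the nervous system, SoxB1 UMIs were few. Sclerotome cells, the ventral somite cells that form vertebrae and ribs, held 8.81 UPM of Sox2 at E9.5 against 1.30 at E11.5, and endothelial cells 5.38 and 0, where a count of 0 allows up to 2.61 UPM (3 counts). Over all cells kept, Sox2 went from 92.4 to 17.3 UPM, and neural tube cells from 16.6% to 1.01% of the cells. A low level of Sox2, Sox3 or Sox18 in sclerotome moved between stages in the same direction as its level in the whole library, which was 29.96 and 2.17 UPM for Sox3 and 13.5 and 5.73 for Sox18; the part of free RNA in these low levels was not tested. Muscle progenitors at E11.5 held 15.3 UPM of Sox2, all of it in 8 of 162 cells, and the 114 of them with no UMI of any neural tube or crest gate gene held none (a count of 0, which allows up to 1.80 UPM at 3 counts).

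Sox9 and Sox6 in the neural tube differed most between the stages. Sox9 (ENSMUSG00000000567; chromosome 11, 112782224 to 112787760), which in the spinal cord is known for the switch of progenitors towards glia, stood at 26.0 (24.0 to 28.2) UPM in neural tube cells at E9.5 and at 494 (454 to 538) at E11.5, a log2 ratio of 4.25 (4.08 to 4.42). The share of cells with a Sox9 UMI at 5000 UMIs per cell was 10.3% and 81.7%, against a background of 2.24% and 1.75% in endothelial cells. Ventral neural tube cells of E9.5 held 39.1 UPM and dorsal ones 9.71, a log2 ratio of 2.01 (1.64 to 2.40). The 35 dorsal cells of E11.5 alone held 319 (267 to 379) UPM, above both E9.5 groups. Ventral cells numbered 19 at E11.5 and are given no level.

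Sox6 (ENSMUSG00000051910; chromosome 7, 115470872 to 116038796), a SoxD factor without an activation domain of its own, stood at 8.23 (7.11 to 9.47) UPM in neural tube cells at E9.5 and at 93.9 (76.6 to 114) at E11.5, an 11.4-fold difference. Its partner Sox5 (ENSMUSG00000041540; chromosome 6, 143828425 to 144781977) stood at 5.85 UPM and at 24.9, a log2 ratio of 2.09 (1.43 to 2.69). Both SoxD levels were higher at E11.5 than counting error allows. In all, 6 of the 9 members with at least 20 UMIs in the neural tube of both stages together were more than 2-fold higher at E11.5 (Sox2, Sox4, Sox5, Sox6, Sox8 and Sox9) and 0 were lower. Of all genes with that many UMIs, 14.2% were higher and 6.02% lower, and their median log2 ratio was 0.12. Sox8 was among the 6 with 4.60 (1.49 to 10.7) UPM at E11.5 and 1.06 at E9.5. The E11.5 neural tube cells also held more UMIs of the crest gate genes than those of E9.5, 357 UPM summed over 7 genes against 64.8; 325 of the 357 were Ednrb, and the defining crest genes Foxd3 and Erbb3 were at 0 there, as was Sox10. Neuron gate genes in the neural tube cells summed to 115.3 UPM at E9.5 and to 333 in the later library, with UMIs of 7 of 7 genes at both stages and most of the difference in Tubb3 (20.4 and 104), Elavl3 (23.5 and 94.8) and Stmn3 (18.5 and 91.2). The neurons themselves held 2058 and 8917 UPM of this list, and its part in the Sox4 level of the neural tube, which was 214 and 552 UPM, was not tested.

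The third SoxB1 gene, Sox1, which is no member, went from 43.5 to 18.4 UPM in the neural tube and from 44.7 to 6.47 in neurons, a log2 ratio of -1.24 (-1.96 to -0.60) and -2.79 (-3.44 to -2.17). The related SoxB2 gene Sox21 went from 35.6 to 90.2 UPM in the neural tube, and from 32.2 to 23.3 in neurons. Sox1 and Sox3 thus shared the low level in E11.5 neurons, and of these 4 genes Sox2 and Sox21 were higher in the E11.5 neural tube.

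**Figure D2:**
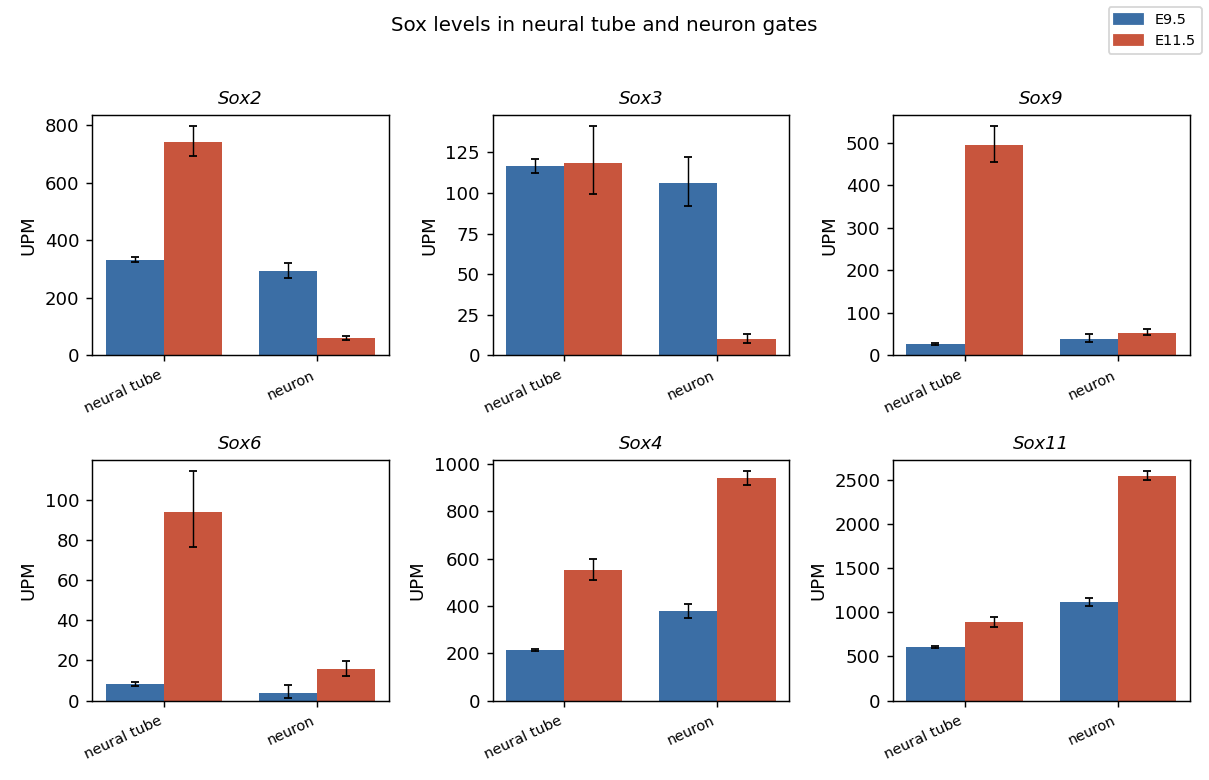
UPM of 6 Sox genes in neural tube and neuron cells at E9.5 (blue) and E11.5 (red), with exact 95% Poisson intervals as error bars. Sox9 in the neural tube stands at 26.0 and 494 UPM and Sox11 in neurons at 1116 and 2545, and Sox2 and Sox3 are low in the E11.5 neurons.

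SoxC genes were found in every class and were highest in neurons. Sox11 (ENSMUSG00000063632; chromosome 12, 27334264 to 27342574), which turns on genes of early neuronal differentiation, stood at 1116 (1068 to 1165) UPM in neurons at E9.5 and at 2545 (2499 to 2591) at E11.5. In the neural tube it stood at 607 (597 to 617) and 889 (833 to 946) UPM. Neurons were thus above neural tube cells at both stages, by 1.84-fold at E9.5 and 2.86-fold at E11.5. A Sox11 UMI was found in 98.5% and 99.1% of neurons at 5000 UMIs per cell. White blood cells, used as the background for SoxC genes, numbered 82 at E11.5 (median 13260.5 UMIs) and had a Sox11 UMI in 14.1% of the 64 cells deep enough, and their 69.1 UPM was the lowest Sox11 level of that stage.

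Sox4 (ENSMUSG00000076431; chromosome 13, 28948919 to 28953713), the other SoxC gene, stood at 379 (351 to 408) UPM in neurons at E9.5 and at 940 (912 to 968) at E11.5. At E9.5 its levels in sclerotome, Myf5 muscle cells, endothelial cells and muscle progenitors lay between 249 and 255 UPM, with overlapping intervals, and neural tube cells were lowest at 214. At E11.5 the order below neurons was sclerotome with 688 (672 to 704) UPM, then cartilage precursors with 590 and Myf5 muscle cells with 576, whose intervals overlap, and of the tissues studied endothelial cells were lowest at 259 (230 to 290), above the white blood cells at 79.7. Endothelial cells were the class without a Sox4 difference between stages, with 252 UPM at E9.5 and a log2 ratio of 0.04 (-0.15 to 0.23). In the other 6 classes compared between stages, muscle cells with Myf5 included, the Sox4 ratio lay between 0.82 in crest and 1.43 in sclerotome.

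Between the stages, 5 of the 8 members with enough UMIs in neurons were more than 2-fold higher at E11.5 (Sox4, Sox5, Sox6, Sox10 and Sox11) and 2 were lower (Sox2 and Sox3), where 24.4% of all genes were higher and 9.08% lower, around a median log2 ratio of 0.25. Among neurons that matched neither the neural tube nor the crest gate, Sox11 stood at 1605 and 2668 UPM and Sox4 at 545 and 953, so that both differences were below 2-fold, at 1.66 and 1.75. Sox6 was below it there as well, with 7.32 and 10.2 UPM. Sox9 was past it, with 5.49 and 25.3 UPM, a 4.60-fold difference against 1.37-fold in all neurons. The E9.5 value of Sox9 rests on 3 UMIs there. The interval of the log2 ratio of 2.20 is 0.61 to 4.50, which reaches below 2-fold. The Sox10 count in E11.5 neurons also came largely from cells with a second gate: the 5 neurons that matched the crest gate held 123 UPM, and the 381 without a second gate 1.46. At E11.5, 1 of 8 members was higher in neurons than in the neural tube (Sox11) and 4 were lower (Sox2, Sox3, Sox6 and Sox9), where 21.4% of all genes were higher and 9.93% lower. At E9.5, 2 of 9 were higher (Sox8 and Sox18) and 2 lower (Sox5 and Sox6), with 7.72% and 4.23% of all genes. In the neurons of E9.5 without a second gate, Sox4 (log2 ratio 1.35) and Sox11 (1.403) were also past 2-fold higher than in the neural tube and Sox2 (-1.36), Sox3 (-1.41) and Sox9 (-2.25) lower, while Sox6 (-0.17) was not and Sox8 had 0 UMIs. The direction of Sox9 turned there, since its log2 ratio in all E9.5 neurons was 0.59. The turned value rests on 3 Sox9 UMIs in 3 of 71 neurons. Its interval is -4.53 to -0.69, which reaches below 2-fold. Each of the 4 calls in all E9.5 neurons rested on fewer than 10 UMIs in neurons, and 8 of the 9 Sox18 UMIs came from 1 cell.

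SoxE genes told the stages of the neural crest apart. The crest is the population that leaves the dorsal neural tube and forms sensory and autonomic ganglia, glia and pigment cells, and Sox10 (ENSMUSG00000033006; chromosome 15, 79154908 to 79165240) is needed for its glia and pigment cells. Sox10 stood at 144 (135 to 154) UPM in crest cells at E9.5 and at 239 (225 to 253) at E11.5, a 1.66-fold difference. In the other gated classes, neurons aside, its level was at most 1.61 UPM. A Sox10 UMI was found in 47.3% of crest cells at E9.5 and in 68.0% at E11.5 at 5000 UMIs per cell, and in 81.1% and 92.1% at full depth (medians of 14903.5 and 20127 UMIs). No endothelial cell kept a Sox10 UMI after thinning, and 0.357% and 1.61% had one before it.

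Sox9, which is known to act before Sox10 in crest cells, had the opposite direction there, with 277 (264 to 290) UPM at E9.5 against 29.5 (24.8 to 34.8) at E11.5, a log2 ratio of -3.23 (-3.49 to -2.98). At equal depth its share of cells was 55.6% and 12.4%. Sox8 (ENSMUSG00000024176; chromosome 17, 25565892 to 25570686), the third SoxE gene, went from 4.67 (3.12 to 6.70) UPM to 25.8 (21.5 to 30.9), a 5.54-fold difference. Sox9 was thus low and Sox8 and Sox10 high in the crest cells of E11.5. Within the crest cells of a stage, Sox9 and Sox10 showed no tie: at 5000 UMIs per cell, 46.7% of the E9.5 cells with a Sox9 UMI had one of Sox10, against 48.0% of those without, and at E11.5 the shares were 67.9% and 68.0%.

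Other members also differed in crest cells. Sox5, which is known to take part in crest development beside its role in cartilage, stood at 28.0 (24.0 to 32.5) UPM at E9.5 and at 76.9 (69.2 to 85.2) at E11.5. Sox2 stood at 55.3 UPM and 106, a log2 ratio of 0.94 (0.74 to 1.14), whereas Sox3 was at 5.95 and 0.847. The crest cells thus held Sox2 with little Sox3, unlike the neural tube, and 38.7% of the E11.5 crest cells kept a Sox2 UMI at 5000 UMIs per cell. Summed over the 9 neural tube gate genes, crest cells held 43.8 and 45.8 UPM at the stages, against 842 and 1393 in the neural tube. In all, 2 of 9 members were more than 2-fold higher in crest at E11.5 (Sox5 and Sox8) and 2 lower (Sox3 and Sox9), where 16.3% of all genes were higher and 5.31% lower, around a median of 0.13.

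**Figure D3:**
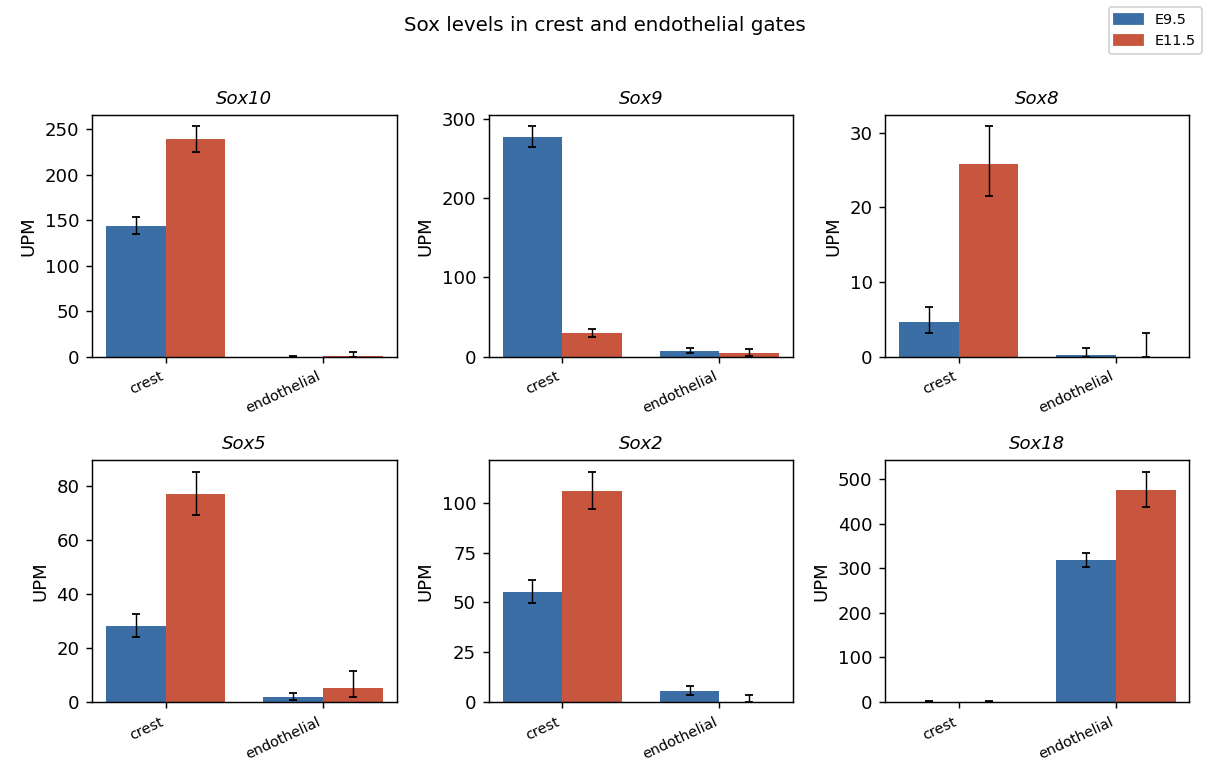
UPM of 6 Sox genes in neural crest and endothelial cells at E9.5 (blue) and E11.5 (red), with exact 95% Poisson intervals. In crest, Sox9 stands at 277 and 29.5 UPM while Sox10, Sox8 and Sox5 are higher at E11.5, and Sox18 is found in the endothelial cells at 319 and 476 UPM.

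Sox18 (ENSMUSG00000046470; chromosome 2, 181669836 to 181671640), a SoxF factor of vessels known for starting the lymphatic program, stood at 319 (303 to 335) UPM in endothelial cells at E9.5 and at 476 (437 to 517) at E11.5, a 1.49-fold difference. In the other gated classes its level was between 0 and 4.90 UPM. At 5000 UMIs per cell, a Sox18 UMI was found in 76.1% and 84.2% of endothelial cells and in 0.248% and 0% of neural tube cells, its background. At full depth the shares were 94.3% and 88.7% of endothelial cells, and 1.04% and 0% of neural tube cells, at median depths of 12102 and 9952 UMIs. The other SoxF genes shared this place: Sox7 stood at 54.5 UPM in endothelial cells at E9.5 and 113 at E11.5, a 2.08-fold difference, and Sox17 at 161 and 152 UPM, a log2 ratio of -0.08 (-0.33 to 0.16).

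Beside Sox18, the SoxC genes were found in endothelial cells. Sox11 stood at 167 (156 to 179) UPM at E9.5 and at 361 (327 to 397) at E11.5, whereas Sox4 had the same level at both stages. Sox11 was the 1 of 6 members more than 2-fold higher at E11.5 and Sox2, with 0 UMIs at E11.5, the 1 counted as lower, where 8.19% of all genes were higher and 5.19% lower. The Sox2 count is 2.06-fold lower when 3 counts stand for the 0, and the interval of that log2 ratio reaches -0.64, which is less than 2-fold. Neuron gate genes summed to 23.7 UPM in the endothelial cells of E9.5 and to 134 in those of E11.5, and Stmn2 alone held 20.9 and 125 UPM of these sums. Of the other genes of this list, Elavl3, Elavl4 and Stmn3 stood at 0.215, 1.72 and 0.646 UPM at E9.5. At E11.5 they stood at 0.872, 4.36 and 4.36 UPM. Tubb3 and Dcx were at 0 in the endothelial cells of both stages, and Ina at 0.215 and 0 UPM. The part of neuron RNA in these cells was not tested.

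In the skeletal lineage, Sox9, Sox5 and Sox6 formed the trio known to drive cartilage genes such as Col2a1 and Acan, with Sox9 as the activator and the SoxD pair as its helpers. Sox9 stood at 191 (186 to 197) UPM in sclerotome at E9.5, at 245 (235 to 255) at E11.5, and at 623 (611 to 635) in the cartilage precursors of E11.5, cells gated by Col2a1 with at least 2 of the type IX collagen genes, Acan, Matn1 and Cnmd (listed as Lect1). Cartilage precursors had the highest Sox9 level of that stage, followed by the neural tube with 494. Sox5 stood at 20.7 (18.9 to 22.7) and 46.2 (42.1 to 50.6) UPM in sclerotome at the stages and at 98.7 (93.9 to 104) in cartilage precursors. Sox6 was at 21.8 (19.9 to 23.8) and 10.7 (8.75 to 12.9) UPM in sclerotome and at 43.9 (40.7 to 47.3) in cartilage precursors.

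All 3 genes were thus higher in cartilage precursors than in sclerotome of the same library, by a log2 ratio of 1.35 (1.28 to 1.41) for Sox9, 1.10 (0.95 to 1.25) for Sox5 and 2.04 (1.75 to 2.35) for Sox6. The cartilage gate uses Col2a1 and Acan, which this trio is known to drive, and takes its cells out of sclerotome. The comparison is therefore not independent of the trio. With Sox10, which is at 1.02 UPM in cartilage precursors and so close to background, 4 of 7 members with enough UMIs were past 2-fold in this comparison and 0 were lower, where 1.88% of all genes were higher and 3.41% lower. With 1 more marker gene required in each gate, Sox9 and Sox5 were less than 2-fold higher, at log2 ratios of 0.71 and 0.67, and Sox6 stayed above it, at 1.09. That setting also tightens the cartilage gate, so cells that fail it can count as sclerotome. Sox4 and Sox11 were slightly lower in cartilage precursors, with 590 against 688 UPM and 539 against 660. At 5000 UMIs per cell, 86.8% of the cartilage precursors had a Sox9 UMI, 36.5% one of Sox5 and 17.3% one of Sox6, against 1.75%, 3.51% and 1.75% of endothelial cells at E11.5. Among cartilage precursors with a Sox9 UMI, 38.2% had one of Sox5 and 18.4% one of Sox6, and among those without, 25.7% and 10.4%. In the E11.5 sclerotome these shares were 24.6% and 7.16% with Sox9 and 11.5% and 2.67% without.

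The sclerotome of a segment has a posterior part marked by Uncx and an anterior part marked by Tbx18. At E11.5 the trio differed between the Uncx and Tbx18 cells left outside the cartilage gate. That gate held 449 Uncx and 102 Tbx18 cells, so the remaining cells are an uneven part of each side. The part of this in the difference was not tested. Sox9 stood at 423 (391 to 456) UPM in the 131 Uncx cells and at 188 (175 to 201) in the 317 Tbx18 cells, Sox5 at 72.5 (59.8 to 87.2) and 24.1 (19.7 to 29.2), and Sox6 at 19.1 (12.9 to 27.3) and 7.71 (5.31 to 10.8). The Uncx cells were the higher for all 3 genes, by 2.25-fold, 3.01-fold and 2.47-fold. These were the 3 of 5 members past 2-fold, all lower in Tbx18 cells, where 1.6% of all genes were lower and 6.19% higher. At E9.5 no member was past 2-fold between 301 Uncx and 451 Tbx18 cells, where 1.54% and 0.878% of all genes were. Sox9 was then the higher in Tbx18 cells, with 156 UPM in Uncx and 234 in Tbx18 cells, a log2 ratio of Tbx18 over Uncx of 0.58 (0.45 to 0.71) against -1.17 (-1.32 to -1.02) at E11.5. In the cartilage precursors of E11.5, split in the same way after the values were seen, Sox9 stood at 552 UPM in 449 Uncx cells and at 676 in 102 Tbx18 cells, and Sox5 at 93.8 and 91.8.

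Between the stages, 3 of the 9 members with enough UMIs in sclerotome were more than 2-fold higher at E11.5 (Sox4, Sox5 and Sox8) and 4 were lower (Sox2, Sox3, Sox6 and Sox18), where 18.2% of all genes were higher and 5.22% lower. The median log2 ratio of all genes was 0.23, and with ratios centred on it 1 was higher (Sox4) and 4 were lower. Sox4 stood at 255 and 688 UPM, Sox11 at 384 and 660, and Sox9 was less than 2-fold apart. Cartilage took precedence over sclerotome and held 8 cells at E9.5 and 1113 at E11.5, so the stages compare unlike parts of sclerotome. The E11.5 part lacks the cartilage precursors, which stood at 623 UPM of Sox9, 98.7 of Sox5 and 43.9 of Sox6. The share of this in the sclerotome stage ratios was not tested. Sox8 was low at both stages, at 0.661 (0.370 to 1.09) and 1.50 (0.837 to 2.47) UPM with overlapping intervals. Its background in endothelial cells was 0.215 UPM and 0, where the interval of the 0 reaches 3.21 UPM. The lower Sox6 level at E11.5, a log2 ratio of -1.03 (-1.35 to -0.73), was not seen with 1 more marker gene in each gate, where the ratio was 0.13. Under that setting, cells that fail the stricter cartilage gate can count as sclerotome, so it does not read the same cells.

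**Figure D4:**
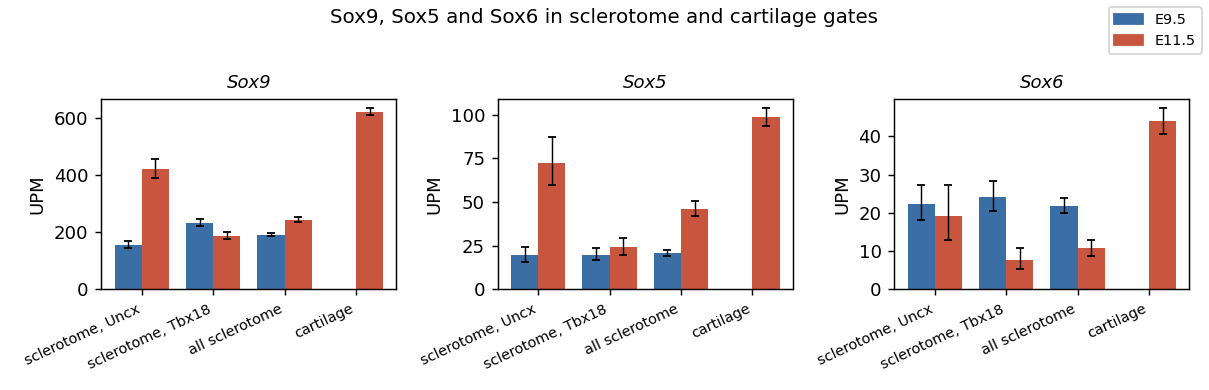
UPM of Sox9, Sox5 and Sox6 in sclerotome cells with Uncx, sclerotome cells with Tbx18, all sclerotome cells and cartilage precursors at E9.5 (blue) and E11.5 (red), with exact 95% Poisson intervals. At E11.5 the Uncx cells lie above the Tbx18 cells for each gene (423 and 188 UPM for Sox9) and cartilage precursors are highest; cartilage at E9.5 (8 cells) is not drawn.

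Along the muscle steps of E11.5, Sox9, Sox5 and Sox11 were highest at the start and Sox8 and Sox6 later. The steps were muscle progenitors with Pax3 or Pax7 and no myogenic factor (162 cells), cells with Myf5 (252), cells with Myod1 (191), cells with Myog (345) and Myog cells with at least 5 of 8 sarcomere genes (166). Sox11 stood at 869 (833 to 907) UPM in progenitors, 513 in Myf5, 515 in Myod1, 446 in Myog and 309 (291 to 329) in sarcomere cells. Sox4 stood at 504, 576, 520, 435 and 294 UPM. Both SoxC genes were thus lowest in the sarcomere cells, and the Sox11 difference lay mostly between progenitors and Myf5 cells. Sox9 stood at 55.9 (47.0 to 66.1), 45.3, 32.3, 18.8 and 9.55 (6.49 to 13.6) UPM, and Sox5 at 19.7, 16.7, 8.01, 3.83 and 3.39. The intervals of neighbouring steps overlapped for Sox9 between progenitors and Myf5 cells, and for Sox5 there and from Myod1 cells onwards.

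Sox8 was found mainly in the Myog step. It stood at 2.41 (0.886 to 5.26) UPM in progenitors, 3.39 in Myf5, 6.29 (3.94 to 9.53) in Myod1, 41.2 (36.3 to 46.5) in Myog and 8.32 (5.48 to 12.1) in sarcomere cells, so that the Myog cells were above every other class of that stage, crest with 25.8 included. The log2 ratio of Myog over Myod1 cells was 2.71 (2.08 to 3.41), and that of sarcomere over Myog cells -2.31 (-2.94 to -1.73). A Sox8 UMI was found in 44.3% (95% Clopper-Pearson interval 39.0% to 49.8%) of the Myog cells and 7.85% of the Myod1 cells, and in 18.8% and 2.12% at 5000 UMIs per cell. Among 62 endothelial cells none had one, which allows a share of up to 5.78%.

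Sox6, which is known in muscle for repressing genes of slow fibres, had the opposite order at the end of the series. It stood at 9.26 (5.87 to 13.9) UPM in progenitors, 2.72 in Myf5, 4.58 in Myod1, 6.07 (4.29 to 8.33) in Myog and 19.4 (14.9 to 24.8) in sarcomere cells. Its log2 ratio of sarcomere over Myog cells was 1.68 (1.07 to 2.30), so Sox6 was highest where Sox8 was low again. When cells with at least 3 Myog UMIs were split by how many of the 8 sarcomere genes they held, bins chosen after the values were seen, Sox8 stood at 31.0, 51.6, 23.1 and 2.59 UPM in cells with 0 to 1, 2 to 4, 5 to 6 and 7 to 8 genes, and Sox6 at 4.42, 7.74, 11.02 and 22.5. These bins held 164, 181, 55 and 109 cells. Cells with 7 to 8 genes were thus lowest in Sox8 and highest in Sox6.

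Read against all genes, 2 of the 7 members with enough UMIs were higher in sarcomere cells than in progenitors (Sox6 and Sox8) and 4 lower (Sox2, Sox5, Sox9 and Sox11), where 13.1% of all genes were higher and 23.2% lower, around a median log2 ratio of -0.30. Step by step, 0 members were higher and 2 lower (Sox2 and Sox6) in Myf5 cells than in progenitors (2.9% and 4.81% of all genes). At E9.5 that step had Sox8 as higher and Sox2 and Sox3 as lower (1.62% and 3.01%), with 4.39 UPM of Sox8 in Myf5 cells and 2.04 in progenitors. Progenitors with no neural tube or crest gate gene had 0 Sox2 UMIs at E11.5. The lower Sox2 in Myf5 and sarcomere cells of E11.5 is therefore not seen against them. At E9.5 they held 1.62 UPM of Sox2, 0.587 of Sox3 and 1.32 of Sox8, against 1.60, 1.20 and 4.39 in Myf5 cells. Sox6 at E11.5 stood at 5.39 UPM in them and at 2.72 in Myf5 cells. From Myf5 to Myod1 cells the count was 0 higher and 1 lower, Sox5 (0.907% and 1.64%). In Myog over Myod1 cells Sox8 was higher and Sox5 lower (5.25% and 4.58%), and in sarcomere over Myog cells Sox6 was higher and Sox8 lower (11.9% and 13.7%).

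Between the stages, Sox4, Sox5 and Sox9 were the 3 of 8 members more than 2-fold higher in muscle progenitors at E11.5 and 0 were lower, where 14.5% of all genes were higher and 6.5% lower, around a median of 0.12. Sox9 stood at 15.8 (13.6 to 18.4) UPM at E9.5 and at 55.9 at E11.5, Sox5 at 5.28 (4.00 to 6.84) and 19.7, and Sox4 at 249 and 504. In the progenitors with no neural tube or crest gate gene, Sox9 stood at 13.5 and 49.1 UPM, so the difference was as large there. Its UMIs came from 61 of 440 of these cells (13.9%) at E9.5 and from 24 of 114 (21.1%) at E11.5. In the same progenitors Sox4 was 1.91-fold higher, and Sox6 was past 2-fold lower, with 11.5 and 5.39 UPM. The E11.5 value of Sox6 rests on 9 UMIs in 7 of these cells. Its log2 ratio of -1.09 has an interval of -2.27 to -0.09, which reaches below 2-fold. Cells with Myf5 gave the same 3 genes as higher, where 12.7% of all genes were, and Sox6 as lower, where 5.01% were. In them Sox9 stood at 10.8 and 45.3 UPM, Sox5 at 3.99 and 16.7, Sox4 at 255 and 576 and Sox6 at 12.8 and 2.72.

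**Figure D5:**
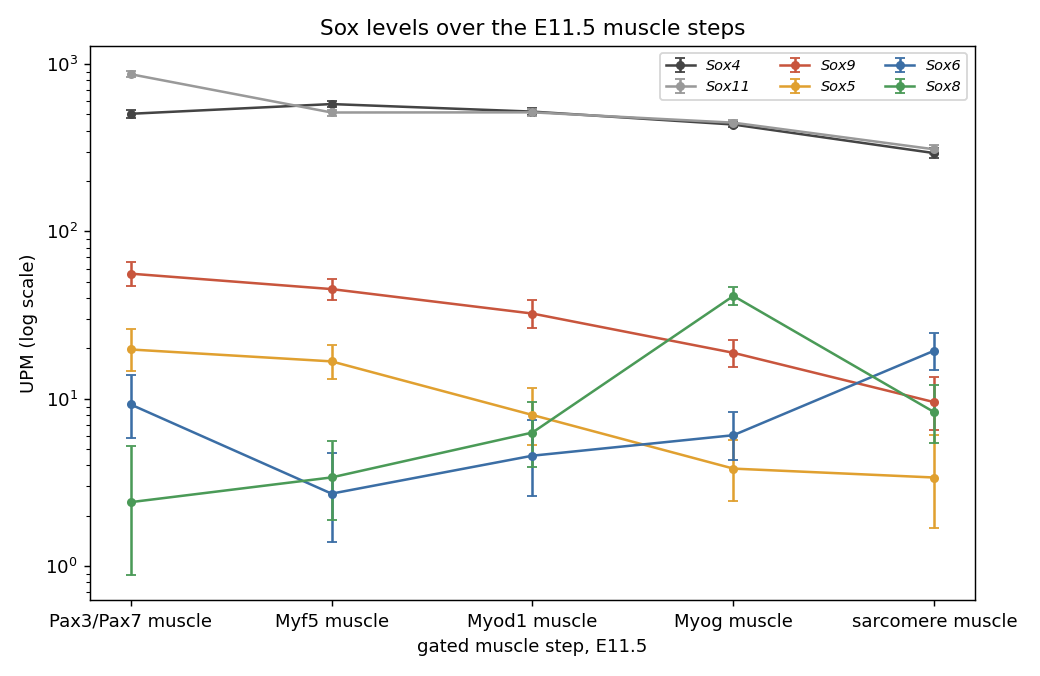
UPM on a log scale for 6 Sox genes over the muscle steps of E11.5, from progenitors with Pax3 or Pax7 to Myog cells with sarcomere genes, with exact 95% Poisson intervals. Sox8 peaks at 41.2 UPM in the Myog step and Sox6 is highest at 19.4 UPM in the sarcomere step. The values of Sox9 and Sox5 are lower with each step, with overlapping intervals between some neighbouring steps.

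The genes with patterns most like each member were sought among 10271 genes that were in no gate and had at least 500 UMIs, by Pearson's r of log2(UPM + 1) over the 18 points of class and stage with at least 50 cells. These points share 2 libraries, and the values are a description. For Sox18 the nearest were the endothelial junction gene Cldn5 (r = 0.992), its own relative Sox17 (0.992) and Clec1b (0.987). Sox3 was nearest to its relatives Sox1 (0.962) and Sox21 (0.952) and to Fam181a (0.951), and Sox10 to Dlx2 (0.973), to the crest factor Tfap2a (0.928) and to Phactr1 (0.922). Sox2 was nearest to Celsr2 (0.930) and to the neural transcription factor Pou3f2 (0.919).

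For SoxC and SoxD genes the nearest patterns came from genes of other kinds. Sox5 was nearest to Papss1 (0.909) and Ugdh (0.879), enzymes that make the sulfate donor and a sugar precursor of cartilage proteoglycans, and to Nlgn3 (0.860). At E11.5 Papss1 stood at 123 UPM in cartilage precursors and 126 in crest, and Ugdh at 99.6 and 96.6. Sox6 was nearest to Frzb (0.816), a secreted Wnt antagonist known from cartilage, then to Rab28 (0.769) and Mllt3 (0.765), and Sox9 to Rab28 (0.858), Cnnm4 (0.837) and the long noncoding RNA 2610035D17Rik (0.831), which lies 256135 bases from Sox9 on chromosome 11. Frzb itself was highest in the E11.5 neural tube, at 82.9 UPM, against 8.07 in cartilage precursors. Sox8 was nearest to Megf10 (0.817), a gene of muscle satellite cells, Snx1 (0.776) and Gfra1 (0.766), and Sox11 to Mpp3 (0.941), Capn10 (0.927) and Rab33a (0.920). Megf10 stood at 74.2 UPM in crest and 49.0 in Myog cells at E11.5. Sox4 was nearest to Gm26735 (0.976), Nlgn2 (0.947) and Tia1 (0.938). Gm26735 overlaps Sox4 on the opposite strand, its highest level was 73.4 UPM in the E11.5 neurons, and the sources used here do not state how strand was counted, so reads of the pair may not be told apart. The same holds for the antisense genes that overlap Sox5 and Sox6 (Sox5os1 to Sox5os5 and Sox6os).

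Among the members themselves, Sox2 and Sox3 had the highest r over these 18 points (0.901), followed by Sox5 and Sox9 (0.773) and by Sox6 and Sox9 (0.604). The SoxC pair Sox4 and Sox11 had an r of 0.574 and the SoxD pair Sox5 and Sox6 of 0.445. SoxE genes did not share a pattern across classes, with an r of 0.181 for Sox9 and Sox10, 0.318 for Sox8 and Sox10 and -0.06 for Sox8 and Sox9. Sox18 had a negative r with each of the other 9 genes, from -0.09 with Sox3 to -0.56 with Sox8.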

How the data were processed

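Somite cells of 3 pooled embryos per stage were captured by 10x Genomics droplets. The authors deposited raw UMI counts per gene and barcode, not normalized, which per the submitters' processing notes came from Cell Ranger 3.0.1 and mm10; how strand was counted is not given in the sources used here. Cells with 200 to 6499 genes and under 15% mitochondrial UMIs were kept, which removed 270 and 572 barcodes. Gates were built on marker UMIs without Sox genes: at least 3 endothelial, neural tube or crest genes, 4 neuron genes, 2 sclerotome genes with Pax1 or Pax9, or 5 Col2a1 UMIs with 2 cartilage genes. Muscle progenitors needed 2 UMIs of Pax3 or Pax7, 1 other progenitor gene and none of Myf5, Myf6, Myod1 or Myog, and the Myf5 and Myod1 steps 2 UMIs and the Myog step 3 UMIs of their gene. Neurons took precedence over neural tube and crest, and cartilage over sclerotome. UMIs were summed per class, and exact 95% intervals were computed for levels (Poisson), ratios (2 Poisson counts) and shares (Clopper-Pearson). With 1 library per stage there was no replicate error and no p-value was computed, and all intervals cover counting error only. A gene counted as past 2-fold needed 20 UMIs in both groups together, and for a count of 0 the ratio was bounded with 3 counts. Shares were also read after thinning cells to 5000 UMIs. The members, gates and gene lists were chosen with earlier results of these data known. Genes named are the members, 9 other Sox genes, markers, and the 3 genes most like each member, of which 1 for Sox2 is not reported here. Of those 9, Sox12, Sox13, Sox14, Sox15 and Sox30 are not described. Alternatives were stricter gates, removal of Scrublet calls (6.30% and 2.33% of barcodes, at an expected rate of 8%), 1000 genes per cell, means over cells, centring, thinning and 100 UMIs, and after seeing the data neurons and progenitors without neural matches, and splits of cartilage and Myog cells. Doublets were otherwise limited by the cap on genes and by leaving out cells of several tissues (564 and 200 cells). Python 3.11.15, numpy 2.4.6, scipy 1.17.1, pandas 2.3.3, scanpy 1.11.5 and matplotlib 3.10.9 were used, and gene positions came from GENCODE M21 (GRCm38).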

Additional observations from a re-analysis of the deposited data

Results flagged for a closer look

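For 3 genes the difference between stages had opposite directions past 2-fold in a pair of tissues, with 1 library per stage, and the difference between the tissues was not tested. Sox9 was higher at E11.5 in the neural tube (log2 ratio 4.25) and lower in neural crest (-3.23), a gap of 7.48. Sox6 was higher in the neural tube (3.51) and lower in sclerotome (-1.03), a gap of 4.54, and the sclerotome value became 0.13 under stricter gates. The E11.5 sclerotome lacks the cells that matched the cartilage gate, and under stricter gates some of them can count as sclerotome. Sox2 was higher in the neural tube (1.16) and lower in neurons (-2.26), a gap of 3.42.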

How the results depend on the processing

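The class with the highest level of each gene at each stage (20 values) was the same under stricter gates, without Scrublet calls, at 1000 genes per cell, as means over cells and after thinning. The number of members past 2-fold moved by over 1.5 times as follows. Between stages in neurons it was 7, and 3 with 1 more marker gene and UMI per gate, 4 at 100 UMIs, and 4 in neurons outside the neural tube and crest gates. In endothelial cells it was 2, and 1 without Scrublet calls, as means over cells, after thinning and at 100 UMIs. In sclerotome it was 7, and 3 after thinning and 4 at 100 UMIs, and in muscle progenitors 3, and 5 after thinning. For neurons over neural tube at E9.5 it was 4, and 2 at 100 UMIs and 7 in neurons outside the other gates. For cartilage over sclerotome it was 4, and 1 under stricter gates, and for sarcomere over progenitor cells 6, and 2 at 100 UMIs. The minimum of 100 UMIs leaves fewer members by its construction. Stricter gates also apply to cartilage, so cells that fail that gate can count as sclerotome. The causes of the other moves were not tested. Under stricter gates the log2 ratio reversed for Sox6 in sclerotome between stages (0.13) and, in neurons over neural tube at E9.5, for Sox5 (0.13), Sox6 (0.76) and Sox8 (-0.43), and without Scrublet calls for Sox18 there (-0.78). In neurons outside the other gates Sox9 turned there from 0.59 to -2.25, a value that rests on 3 Sox9 UMIs in these neurons. Cartilage could not be compared between stages with 8 cells at E9.5. No paired analysis was possible because each stage has 1 library, and no replicate could be left out.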
